A study of Mus musculus with 48 samples.

Results

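Muscle granulocytes were the 200 cells that carried the authors' cell type label granulocytes and the organ label muscle, out of 1207 granulocytes in all organs and 12096 annotated cells. They made up 16.57% of all granulocytes of the series. The mice were male DBA1/J animals aged 8 to 12 weeks. The 6 mice with collagen-induced arthritis (CIA), named S1, S2, S3, S5, S6 and S8, had been immunized near the tail base with bovine collagen II in complete Freund's adjuvant and boosted with collagen in incomplete adjuvant on day 20. The 4 healthy mice, named H3, H4, H6 and H7, had received buffered saline. Whole organs were cryopreserved, muscle was digested with collagenase II and DNase I and joint with collagenase IV and DNase I, both for 120 minutes, and spleen was pressed through a strainer without enzyme, after which its red cells were lysed. Transcripts of single cells were counted with Seq-Well, in which each cell shares a nanowell with a barcoded bead, as unique molecular identifiers (UMIs) from the 3' ends.

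Granulocytes here are neutrophils and their late precursors. In the bone marrow, promyelocytes make the proteins of primary (azurophil) granules, such as myeloperoxidase and elastase, and still divide. Myelocytes and metamyelocytes then make the proteins of specific granules, such as lactoferrin and cathelicidin. Band and segmented cells later make those of gelatinase granules, together with the receptors for chemokines and for granulocyte colony-stimulating factor, and leave for the blood. Resting skeletal muscle holds few neutrophils outside its vessels, and an organ taken without perfusion keeps blood. No blood or marrow library was analysed here, so the cells were placed along this sequence by their stage genes and by comparison with granulocytes of joint and spleen.

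The label was first compared with its markers. Of the UMIs of the healthy muscle granulocytes, between 325285 and 406882 counts per 1000000 UMIs (CPM) fell on the 4 markers *Camp*, *Ngp*, *S100a8* and *S100a9* in each mouse. *S100a8*, which encodes a subunit of calprotectin, stood at 240642 CPM in H3, 189829 in H4, 210684 in H6 and 190047 in H7. *S100a9*, its partner, stood at 111369, 84500, 94914 and 95713 CPM in the same order. The 20 genes with the highest mean level took 47.8% to 53.6% of the UMIs of a mouse. Beside the markers and haemoglobin, the highest levels were those of mt-Rnr2, *Lyz2* (lysozyme), *Fth1* (ferritin heavy chain), *Tmsb4x* and *Actb*.

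Markers of other cells were low. The 7 mast cell and basophil genes had 0 UMIs in the 170611 UMIs of the healthy muscle granulocytes, which allows at most 17.6 CPM by counting error alone. The eosinophil genes had 4 UMIs, the platelet genes 1 and the macrophage genes 9, all of the latter from *Cd68*. The monocyte list stood at 493 to 948 CPM, nearly all of it from *Ly6c2*, while *Csf1r* and *F13a1* had 0 UMIs. T cell genes were at 183 to 698 CPM, fibroblast genes at 37 to 1163 and muscle fibre genes at 91 to 465. B cell genes were at 0 CPM in H3 and H4, at 146 in H6 and at 167 in H7. Haemoglobin genes varied, at 18833 CPM in H3, 63997 in H4, 8748 in H6 and 26938 in H7, and the red cells of the muscle had been lysed in H6 and H7 but not in H3 and H4.

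Depth was modest. A muscle granulocyte had a median of 792.5 UMIs (418 to 4541) and 340.5 genes. The healthy mice gave 4301 UMIs (H3, 5 cells), 39799 (H4, 47 cells), 54755 (H6, 59 cells) and 71756 (H7, 73 cells), so that 1 UMI was worth 233 CPM in H3 and 13.9 CPM in H7. Values of H3 rest on few UMIs, and 3 of the 200 cells had a barcode that also occurred in another library.

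Nearly all muscle granulocytes came from healthy mice: 184 of 200 (92%) did, and 16 came from CIA mice. As a share of the annotated muscle cells, granulocytes made up 7.14% in H3 (5 of 70 cells, Wilson 95% interval 3.09% to 15.7%), 28.0% in H4 (47 of 168), 15.9% in H6 (59 of 370) and 16.3% in H7 (73 of 449). In the CIA mice the share was 2.22% in S1 (1 of 45 cells), 0.435% in S2 (3 of 689), 2.29% in S3 (4 of 175), 0.287% in S5 (1 of 348), 0.151% in S6 (3 of 1989) and 1.53% in S8 (4 of 262). Intervals cover counting error only. Every CIA mouse lay below every healthy mouse.

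The mean share was 16.8% ± 8.55 (SD, n = 4) in healthy and 1.15% ± 0.983 (SD, n = 6) in CIA mice, a difference of -15.7 percentage points for CIA minus healthy. This pattern was known when the cells were chosen, so it is given as a description with no test. With the cells labelled neutrophils added the difference was -16.8 points. The sample names carry a prefix, CIA or 2CIA, treated here as the name of an experiment, and H3 and the severe CIA mice S1, S2 and S3 share the prefix 2CIA. Within the experiment CIA alone (3 against 3 mice) the difference was -19.4 points, among the lysed samples alone (2 against 4) it was -15.0, and among the unlysed alone (2 against 2) -16.3. Severity and experiment cannot be told apart among the CIA mice. The cell numbers are shares, so a lower share and more cells of other kinds cannot be told apart either.

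**Figure D1:**
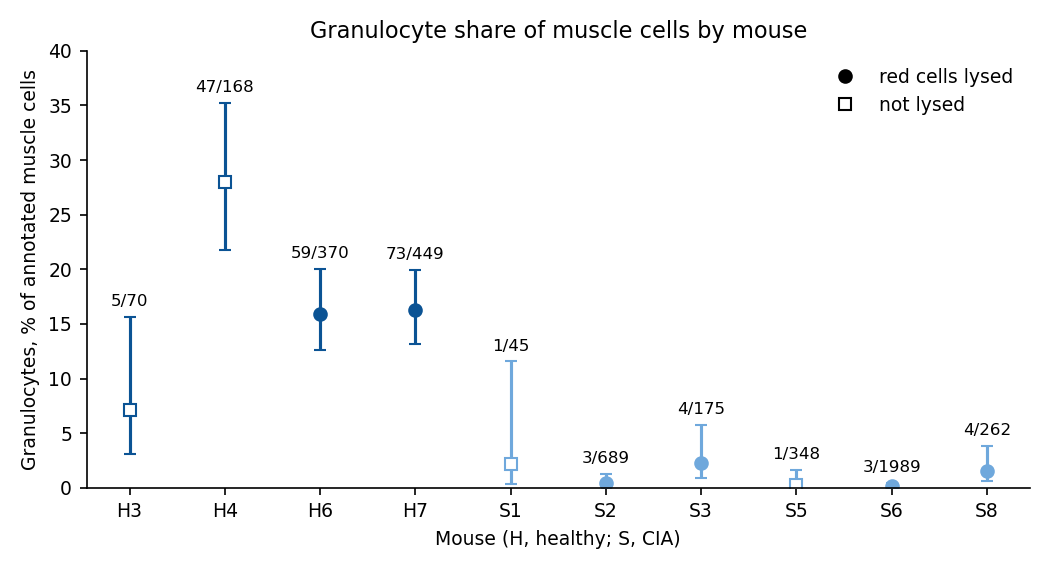
Share of granulocytes among the annotated cells of muscle (y axis, percent) in each of the 10 mice (x axis; H, healthy; S, CIA), with granulocytes and annotated cells above each point and Wilson 95% intervals as bars; filled circles mark samples with lysed red cells and open squares samples without. The healthy mice lie between 7.14% and 28.0% and the CIA mice between 0.151% and 2.29%.

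Maturation stage was read first from the granule genes. Specific granule genes had summed levels of 65334 CPM in H3, 61685 in H4, 77418 in H6 and 67298 in H7 (mean 67933 ± 6737 SD, n = 4). *Camp* and *Ngp*, which make up most of this sum, are also markers of the label, so the level of the list is largely part of how the cells were named. The 7 other genes of the list summed to 10463 CPM in H3, 10729 in H4, 13095 in H6 and 11776 in H7. *Camp*, which encodes the antimicrobial cathelicidin, stood at 30923, 27739, 31431 and 26660 CPM in H3, H4, H6 and H7. *Ngp*, neutrophilic granule protein, stood at 23948, 23217, 32892 and 28862 CPM. These genes varied little among the 4 mice.

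The rest of the list was lower. *Ltf* (lactoferrin) stood at 4883, 5000, 4274 and 4237 CPM, and *Lcn2* (lipocalin 2, which binds siderophores) at 2325, 2663, 4821 and 3721. *Mmp8*, the neutrophil collagenase, stood at 1628 CPM in H3, where it had 7 UMIs, and at 653, 274 and 557 in H4, H6 and H7. *Cd177*, a surface protein of neutrophils, lay between 678 and 968 CPM and *Pglyrp1*, a peptidoglycan-binding protein, between 779 and 950. *Chil3*, a chitinase-like protein, stood at 0, 905, 1735 and 1254 CPM. *Olfm4* was the lowest member of the list, at 0 to 167 CPM.

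Single cells showed the same genes throughout the population. A *Camp* UMI was found in 97.3% of the 184 healthy muscle granulocytes, against 40.9% of the 350 T cells of the same muscles. With every cell thinned to 410 UMIs, these shares were 96.7% and 29.7%, and the median depths before thinning were 784.5 and 551.5 UMIs. The T cells, here and below, are no plain measure of free RNA, since 7 of them held at least 5 UMIs of the primary granule genes. *Ltf* was found in 84.2% of the granulocytes and 5.71% of the T cells (thinned, 71.7% and 3.43%). Per cell, the specific granule genes took a median of 6.70% of the UMIs (quartiles 4.74% and 8.26%, range 0 to 11.9%), and 5 of the 184 cells were under 1%. *S100a8* and *S100a9* together took 27.9% (range 5.33% to 51.2%).

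**Figure D2:**
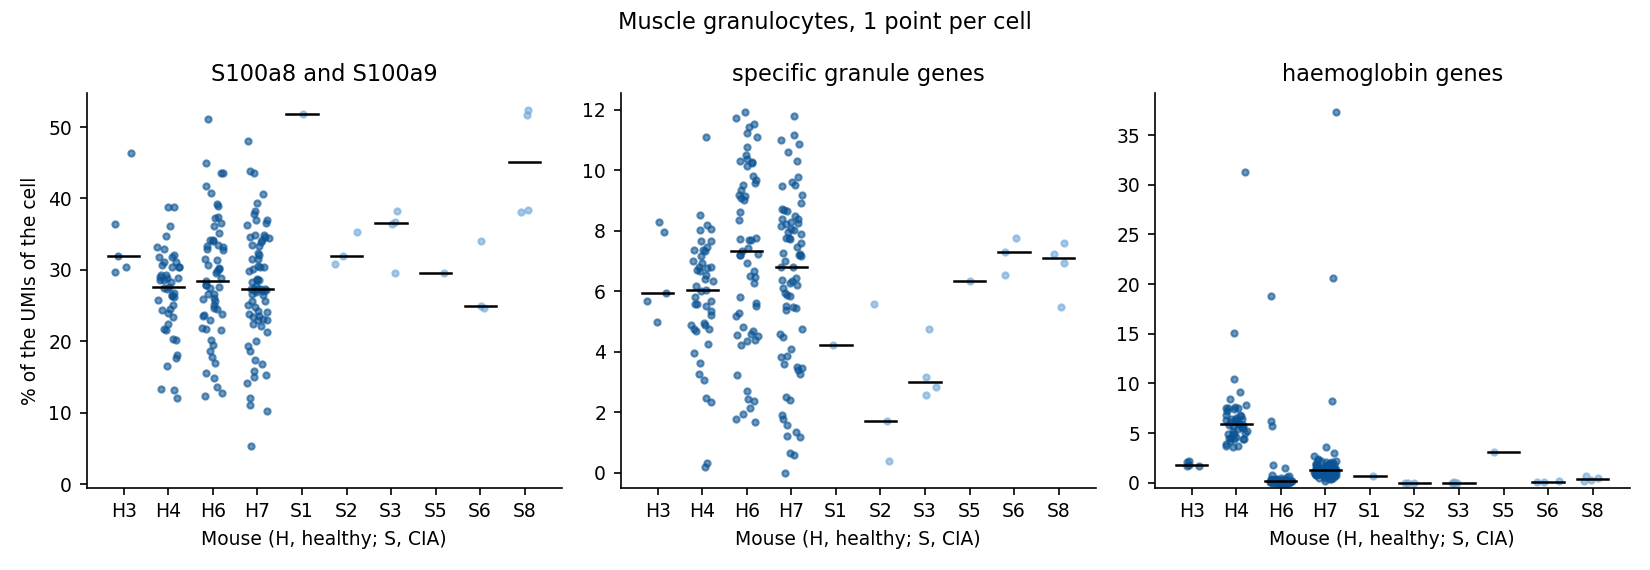
Share of the UMIs of each muscle granulocyte (y axis, percent) on *S100a8* and *S100a9*, on the specific granule genes and on the haemoglobin genes, by mouse (x axis; H, healthy; S, CIA), with 1 point per cell and the median as a bar. The healthy cells hold a median of 27.9% and 6.70% on the first pair of panels, and haemoglobin differs by mouse, with medians of 5.94% in H4, 0.16% in H6 and 1.30% in H7.

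*Camp*, *Ngp*, *Ltf* and *Mmp8* all lie on chromosome 9 (GRCm38, GENCODE vM21), at chr9:109847379-109849617 (minus strand), chr9:110419747-110423012, chr9:111019271-111042767 and chr9:7558456-7568485 (plus strand). As background, specific granule genes are known targets of C/EBP epsilon, and C/EBP factors bind sites of the form TTNNGCAA. These letters, on either strand (TTGCNNAA), stand in the 250 bases before the start of 4 of the 9 specific granule genes (*Ngp*, *Ltf*, *Lcn2* and *Mmp8*) and of 9.56% of all 32851 promoters in the RefSeq table (GRCm38.p6). The letters were chosen after the promoters had been seen, and a match is only a description. The gene of the factor itself, *Cebpe*, stood at 233, 176, 384 and 293 CPM in H3, H4, H6 and H7. The stretches of *Ngp* (chr9:110419558-110419746), *Ltf* (chr9:111019042-111019270) and *Mmp8* (chr9:7558179-7558428), all on the plus strand and ending before the annotated transcript, are shown because they belong to the stage list with the highest level in these cells, with the match in capitals. For *Ngp*, 1 of its 2 matches lies in the stretch shown.
Ngp: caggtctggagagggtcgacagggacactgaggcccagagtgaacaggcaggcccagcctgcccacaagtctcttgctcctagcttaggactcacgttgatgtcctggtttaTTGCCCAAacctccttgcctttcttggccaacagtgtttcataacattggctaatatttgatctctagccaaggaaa
Ltf: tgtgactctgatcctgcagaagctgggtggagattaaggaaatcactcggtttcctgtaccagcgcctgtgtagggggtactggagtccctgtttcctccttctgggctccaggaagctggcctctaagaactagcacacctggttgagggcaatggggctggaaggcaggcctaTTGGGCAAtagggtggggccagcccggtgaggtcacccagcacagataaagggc
Mmp8: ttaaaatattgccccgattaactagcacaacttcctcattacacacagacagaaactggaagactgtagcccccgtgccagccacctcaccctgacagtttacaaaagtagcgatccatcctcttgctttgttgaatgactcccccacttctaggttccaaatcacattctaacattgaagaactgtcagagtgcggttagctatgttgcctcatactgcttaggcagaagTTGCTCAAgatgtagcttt

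Genes of the earlier stages were scarce. The 6 primary granule genes summed to 0 CPM in H3, where a count of 0 allows up to 698 CPM, and to 226, 402 and 390 CPM in H4, H6 and H7. *Elane* (neutrophil elastase) had 0, 3, 4 and 11 UMIs and *Mpo* (myeloperoxidase) 0, 0, 1 and 3 in H3, H4, H6 and H7. A UMI of the list was found in 17.4% of the healthy muscle granulocytes and 8.29% of the T cells, and after thinning in 9.24% (Wilson 95% interval 5.85% to 14.3%) and 6.57% (4.42% to 9.67%). The thinned intervals overlap. Of the 82 fibroblasts of the same muscles (median 585 UMIs) 0% had such a UMI (thinned interval 0 to 4.48%), below the interval of the granulocytes. All these intervals count cells pooled over mice, so they are a description over cells and not a test over mice. The T cells held some cells with several UMIs of the list, so their share is no plain measure of free RNA.

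The 16 cell cycle genes summed to 1395 CPM in H3 (6 UMIs, of which 5 were *Mki67*), 427 in H4, 731 in H6 and 557 in H7. Thinned, 11.96% of the granulocytes (Wilson 95% interval 8.03% to 17.4%) and 11.1% of the T cells (8.26% to 14.9%) had a UMI of this list, and 3.66% of the fibroblasts did (1.25% to 10.2%). These shares too are over cells pooled over mice and were not tested over mice. Genes of haematopoietic progenitors had 4 UMIs in all, those of B cell precursors, which are marrow cells too, had 2, and those of erythroid precursors 20, led by the transferrin receptor *Tfrc*.

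Genes of the late stages were present, but unevenly. The mature neutrophil list summed to 3488 CPM in H3, 4523 in H4, 5388 in H6 and 7581 in H7. Most of this was *Retnlg*, a resistin-like secreted protein of late neutrophils, at 698, 2588, 2813 and 4585 CPM. It was found in 59.2% of the healthy muscle granulocytes and 17.1% of the T cells (thinned, 47.8% and 10.3%). *Msrb1* lay between 233 and 836 CPM, *Mxd1*, a repressor of the MYC network, between 233 and 808, and *G0s2*, an inhibitor of lipolysis, between 477 and 1628.

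The receptors of circulating neutrophils were barely counted. *Cxcr2*, the receptor for CXCL1 and CXCL2, and *Csf3r*, the receptor for granulocyte colony-stimulating factor, each had 5 UMIs in all, and each was found in 2.72% of the healthy cells (T cells, 0% and 0.857%). *Il1r2*, the decoy receptor for interleukin 1, had 2, 5, 0 and 17 UMIs in H3, H4, H6 and H7. *Cxcr4*, which retains cells in the marrow, had 0, 4, 9 and 13. Other granulocytes held *Cxcr2* in 2.78% (healthy joint, 36 cells), 14.0% (CIA joint) and 11.6% (CIA spleen) of cells. For *Csf3r* the shares were 5.56%, 8.44% and 5.15%. Thinned, *Cxcr2* was in 2.17% of healthy muscle, 0% of healthy joint, 7.47% of CIA joint and 6.44% of CIA spleen granulocytes. Thinned *Csf3r* stood at 1.63%, 2.78%, 4.01% and 0.858% in the same order. These shares are over cells pooled over mice and were not tested. Receptor transcripts are low in number at this depth, so a low count here is not a measure of the protein.

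Other lists were at intermediate levels. The list named gelatinase granule and secretory vesicle summed to 1479 to 2790 CPM. It was led by *Hp* (haptoglobin) at 712 to 1628, while *Mmp9* (gelatinase B) lay between 101 and 233. The place of *Hp* in this list was a choice made here, and no stage was read from it. The 6 NADPH oxidase genes summed to 2325 to 3345 CPM, led by *Cyba* and *Cybb*, the subunits of the membrane core. Among the transcription factors, whose list summed to 2638 to 4264 CPM, *Junb* led with 1242 to 2160, *Gfi1* had 0 UMIs and *Cebpa* had 1. The retention and egress receptors summed to 233 to 477 CPM and the immediate early and heat shock genes to 2210 to 4041.

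Genes of tissue activation were led by the chemokine *Cxcl2*, which recruits neutrophils, at 2093 CPM in H3, 1558 in H4, 1370 in H6 and 3554 in H7. *Nfkbia*, an inhibitor of NF-kappaB that this factor induces, stood at 1395, 1005, 1023 and 1979 CPM. *Il1b* had 12 UMIs in all and *Cxcl3* had 1. *Cxcl2* was found in 43.5% of the healthy muscle granulocytes and 11.1% of the T cells. Granulocytes of healthy joint, CIA joint and CIA spleen held it in 52.8%, 59.8% and 38.2% of cells, so it was not particular to muscle. The interferon response list was low and even, at 930, 1005, 621 and 794 CPM in H3, H4, H6 and H7. In granulocytes of healthy joints it summed to 135 to 900 CPM (18 UMIs in all), so a low level was not particular to muscle.

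**Figure D3:**
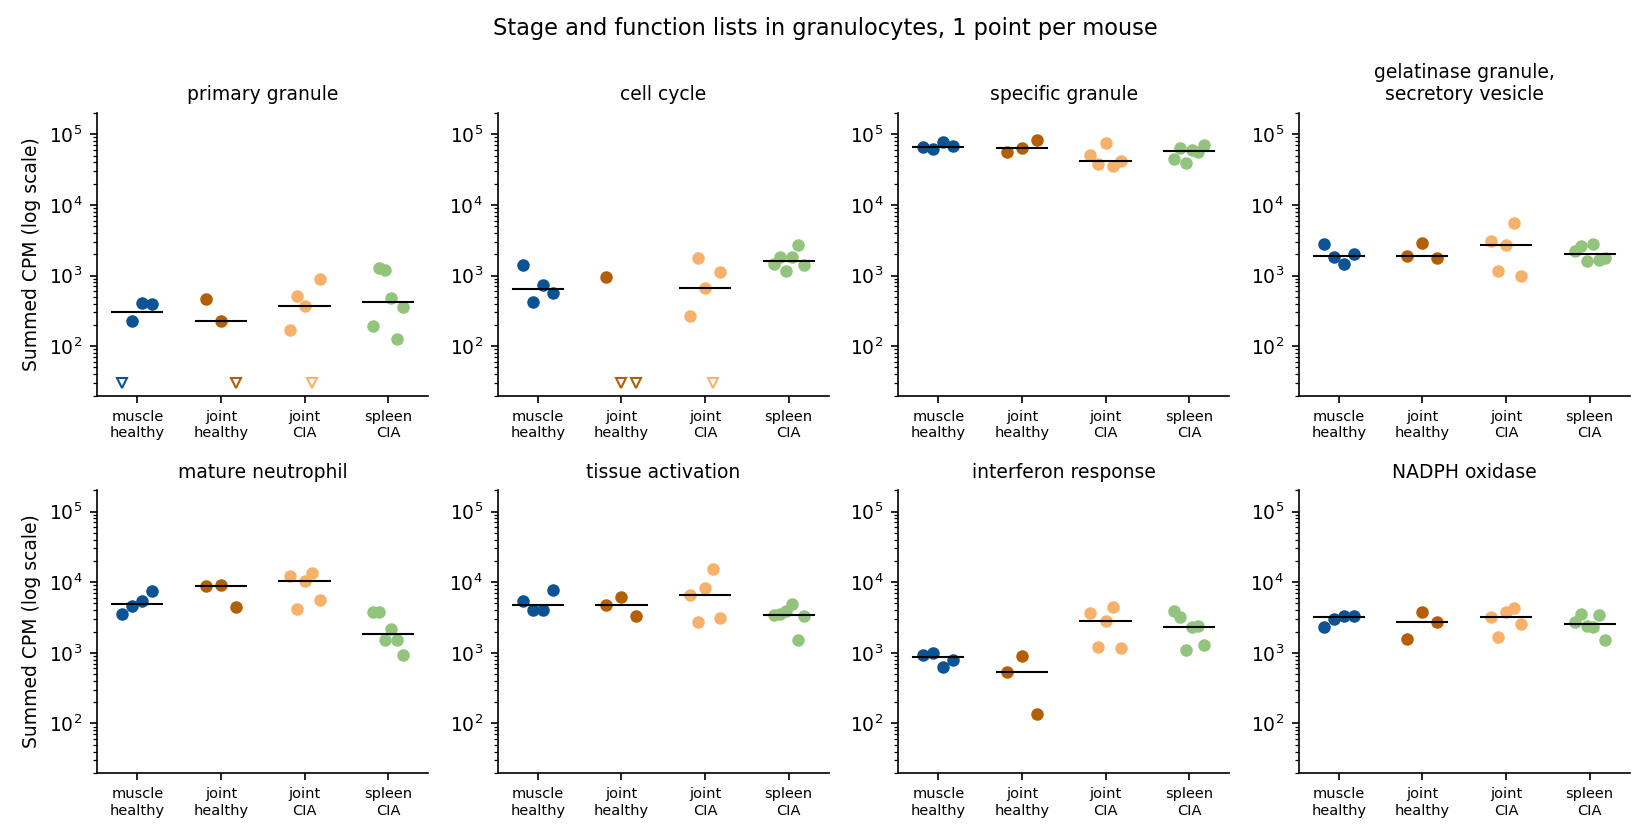
Summed CPM (y axes, log scale) of 8 gene lists in granulocytes of healthy muscle, healthy joint, CIA joint and CIA spleen, with 1 point per mouse, the median as a bar (none where it is 0) and open triangles for mice with no UMI of the list. Specific granule genes of healthy muscle (61685 to 77418 CPM) lie far above primary granule (0 to 402) and cell cycle genes (427 to 1395), and interferon response genes (621 to 1005) lie below all CIA joint and CIA spleen samples. Healthy joint samples are low in the interferon response genes as well, at 135 to 900 CPM.

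The same muscles held cells with another granulocyte label. The 35 healthy muscle cells labelled neutrophils, all from H6 and H7, held 5866 CPM of *Camp* and 8310 CPM of *Ngp* as a pool, and 55654 CPM of *S100a8*. Their pooled *Retnlg* stood at 5114 CPM, *Cxcl2* at 3610 and *Il1r2* at 451. Since the labels were made from expression, these differences are part of how the cells were named and were not tested.

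How far muscle granulocytes look like those of other organs was asked in 1 fit over 18 samples of 279 genes (healthy muscle, healthy joint, CIA joint and CIA spleen; at least 5 granulocytes per mouse). The comparisons share the muscle samples. Healthy spleen, with 12 granulocytes from 3 mice, was too small to be fitted. Against CIA joint and CIA spleen, organ and disease cannot be told apart, and against spleen the enzyme digestion cannot be told apart from them either.

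Against granulocytes of healthy joints (H3, H4 and H7, 36 cells) the question was whether an unaffected joint holds the same kind of cell. No gene passed the test (edgeR quasi-likelihood test with Benjamini-Hochberg adjustment, 0 of 279, 0%). At an unadjusted p under 0.05 there were 25 genes (8.96%), and DESeq2 called 0. The mice of both groups did not overlap in CPM for 24 genes (8.6%), of which 6.81% of all tested lay above in muscle and 1.79% below. *Camp* stood at 29188 ± 2347 CPM (SD, n = 4) in muscle and 27406 ± 2046 (SD, n = 3) in joint, with a log2 difference of -0.04 ± 0.31 (SE) for muscle minus joint. *Ltf* differed by -0.20 ± 0.36, *Retnlg* by -0.72 ± 0.63 and *Cxcl2* by 0.28 ± 0.62. Over the 8 specific granule genes tested the median log2 difference was -0.13, beside -0.02 over all genes, and over the 4 mature neutrophil genes it was -0.51. The standard errors leave room for changes of the size of these medians, so likeness was not shown. With only these 2 groups in the fit, 5 genes were called, all lower in muscle (*Gm10053*, *Gm14516*, *Gm15590*, *Gm34783* and *Gm8203*, of which all but the first are annotated as processed pseudogenes, so their counts may come from near-identical copies).

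Against CIA joints (5 mice, 723 cells, 489 of them from S5) few genes differed. Of 279 genes, 6 were called (2.15%), 3 higher (1.08%) and 3 lower (1.08%) in healthy muscle, and 20 (7.17%) had an unadjusted p under 0.05. The groups did not overlap for 12 genes (4.3%), of which *Wfdc17* and *Slfn4* were also called (0.717%). The specific granule, mature neutrophil and tissue activation lists, with 8, 4 and 3 genes tested, held none of the called genes. *Wfdc17*, a small secreted protein of myeloid cells at chr11:83703991-83706268, stood at 0, 50, 55 and 139 CPM in H3, H4, H6 and H7 and at 2133, 3199, 592, 502 and 638 CPM in the joints of S1, S3, S5, S6 and S8. It was lower in muscle by a log2 value of -4.28 ± 0.75 (SE, edgeR adjusted p = 0.00146), with no overlap between the groups. The call was lost without the lysed muscle samples. *Slfn4*, an interferon-induced gene of myeloid cells at chr11:83175186-83190216, stood at 233, 251, 201 and 153 CPM in muscle and at 835, 384, 662, 837 and 355 CPM in the CIA joints, also without overlap. In H3 its level is that of 1 UMI, so the lack of overlap is uncertain there. Its log2 difference was -1.73 ± 0.44 (SE, edgeR adjusted p = 0.0260), and the call was lost without H3, H6, H7, S5 or S6 (-1.69, -1.60, -1.48, -1.70 and -1.71), and also with the experiment as a term, with at least 10 cells per mouse and without the lysed muscle samples. Pooled T cells of the same samples held 92.8 CPM of *Wfdc17* in healthy muscle and 439 in CIA joint, and 0 and 75.3 CPM of *Slfn4*. The part of these differences outside granulocytes was not tested.

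*Ifi27l2a*, another interferon-induced gene, stood at 465 CPM in H3 (2 UMIs) and at 25, 37 and 28 in H4, H6 and H7, against 142 to 1004 in the CIA joints, and differed by -3.60 ± 0.74 (edgeR adjusted p = 0.00434). Pooled T cells held 58 CPM of it in healthy muscle and 495 in CIA joint. The groups overlap through H3, and the call was lost without H7 or S1, when 1 gene in all was called. Of the 14 interferon response genes 3 were tested. All 3 were lower in muscle and 2 of them were called, with a median log2 difference of -1.73, beside -0.03 over all genes. The third, *Ifitm3*, an interferon-induced membrane protein, stood at 0, 628, 310 and 544 CPM in muscle and at 497 to 1674 in the joints (edgeR adjusted p = 0.216). Genes low in muscle, such as *Ifi27l2a*, *Slfn4* and *Wfdc17*, could pass the filter on low counts through the CIA samples alone, where they were high. The direction of these genes was thus partly set by the filter, and for the list it gives no support of its own.

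The 3 genes called higher in muscle were *Cd74* and *H2-Aa*, parts of the antigen presentation machinery of MHC class II, and the immunoglobulin gene *Igkc*. *Cd74* stood at 0, 75, 475 and 1421 CPM in H3, H4, H6 and H7 and at 0 to 95 in the CIA joints (log2 difference 3.21 ± 0.63, edgeR adjusted p = 0.00372). *Igkc* stood at 0, 25, 438 and 878 CPM in the same muscles. Pooled T cells, untested, held 6065 CPM of *Cd74* in healthy muscle and 514 in CIA joint, 2433 and 295 CPM of *H2-Aa*, and 2066 and 270 CPM of *Igkc*. In the granulocytes *Cd74* and *Igkc* were high in H6 and H7, the mice in which B cell list UMIs were counted and red cells were lysed. Without H7 none of the 3 passed, with log2 differences of 2.03 for *Cd74*, 2.40 for *H2-Aa* and 2.26 for *Igkc*, and without S1 none passed either (2.87, 3.16 and 2.89). With the muscle samples of H6 and H7 left out, the log2 difference was -0.57 for *H2-Aa* and -0.73 for *Igkc*, and the part of B cell RNA in the result was not tested.

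No gene of the stage lists passed the test against CIA joints, but few of them were tested. These were 8 of 9 specific granule, 4 of 14 mature neutrophil, 2 of 8 gelatinase granule, 1 of 16 cell cycle and 0 of 6 primary granule genes. With 2.15% of all genes called, this absence does not decide whether the stage differs. The mature neutrophil list summed to 3488 to 7581 CPM in muscle and 4222 to 13391 in CIA joints, and *Retnlg* stood at 7520, 2431, 6273, 9541 and 3736 CPM in the joints of S1, S3, S5, S6 and S8. Its log2 difference was -1.13 ± 0.55 (SE, edgeR adjusted p = 0.620). The specific granule list summed to 34985 to 75330 CPM there, with a median log2 difference of 0.21 over 8 genes and none called.

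Granulocytes of CIA spleen (6 mice, 233 cells) differed most often. Of 279 genes 36 were called (12.9%), 25 higher in healthy muscle (8.96%) and 11 lower (3.94%), and in 21 of these (7.53% of all tested) the groups did not overlap. An unadjusted p under 0.05 was found for 81 genes (29%). With the experiment as a term 20 genes were called, 18 of them among the 36, and without the filter on low counts 11, 4 of them among the 36. Without S2, H6 or S1 the calls were 16, 17 and 22. No gene of the specific granule list passed the test (8 tested, median log2 difference 0.07, beside 0.02 over all genes). *Hp*, placed in the gelatinase granule list here, was among the 11 called lower.

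*Fth1*, which stores iron and lies at chr19:9980598-9985098, stood at 7673, 8141, 17277 and 18242 CPM in the muscles of H3, H4, H6 and H7 and at 1696, 1619, 2715, 2657, 761 and 1648 CPM in the spleens of S1, S2, S3, S5, S6 and S8. It was higher in muscle by a log2 value of 2.43 ± 0.38 (SE, edgeR adjusted p = 9.11e-05). *Ftl1*, the light chain, stood at 1357 to 2192 CPM in muscle and 127 to 635 in spleen (2.24 ± 0.42, edgeR adjusted p = 0.000585). Both chains of ferritin were thus higher in every healthy muscle than in every CIA spleen.

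*Hmox1*, haem oxygenase 1, which breaks down haem and lies at chr8:75093621-75100589, stood at 465, 226, 1260 and 585 CPM in muscle and at 42, 22, 0, 0, 127 and 0 CPM in spleen. Its log2 difference was 4.17 ± 0.69 (SE, edgeR adjusted p = 0.000117). *Alas1*, the first enzyme of haem synthesis, differed by 1.93 ± 0.47. Haemoglobin UMIs made up 0.875% to 6.40% of the granulocyte UMIs in these muscles and 0.116% to 3.85% in the CIA spleens, and their part in the result was not tested.

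*Plaur*, the urokinase receptor of migrating cells, stood at 3720, 1457, 2959 and 2021 CPM in muscle and at 276, 285, 462, 604, 0 and 471 in spleen (log2 difference 2.47 ± 0.45 SE, edgeR adjusted p = 0.000463). *Atp6v1e1*, a subunit of the proton pump of lysosomes, stood at 2325, 1432, 1607 and 1686 CPM in muscle and at 0 to 404 in spleen (2.76 ± 0.42, edgeR adjusted p = 9.11e-05). *Ctsd*, the lysosomal protease cathepsin D, stood at 233, 503, 712 and 850 CPM in muscle and at 0 to 106 in spleen (2.73 ± 0.55, edgeR adjusted p = 0.00114). *Srgn*, the granule proteoglycan serglycin, stood at 1884 to 3123 CPM in muscle and 118 to 1208 in spleen (1.72 ± 0.37, edgeR adjusted p = 0.00214). *Ankrd22* (2.31 ± 0.53) also did not overlap, and *Hcar2*, a receptor for hydroxybutyrate and niacin, was called (3.63 ± 0.73) although H3 had no UMI of it. For *Ctsd* and *Ankrd22* the H3 value was 233 CPM, the worth of 1 UMI in that sample.

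**Figure D4:**
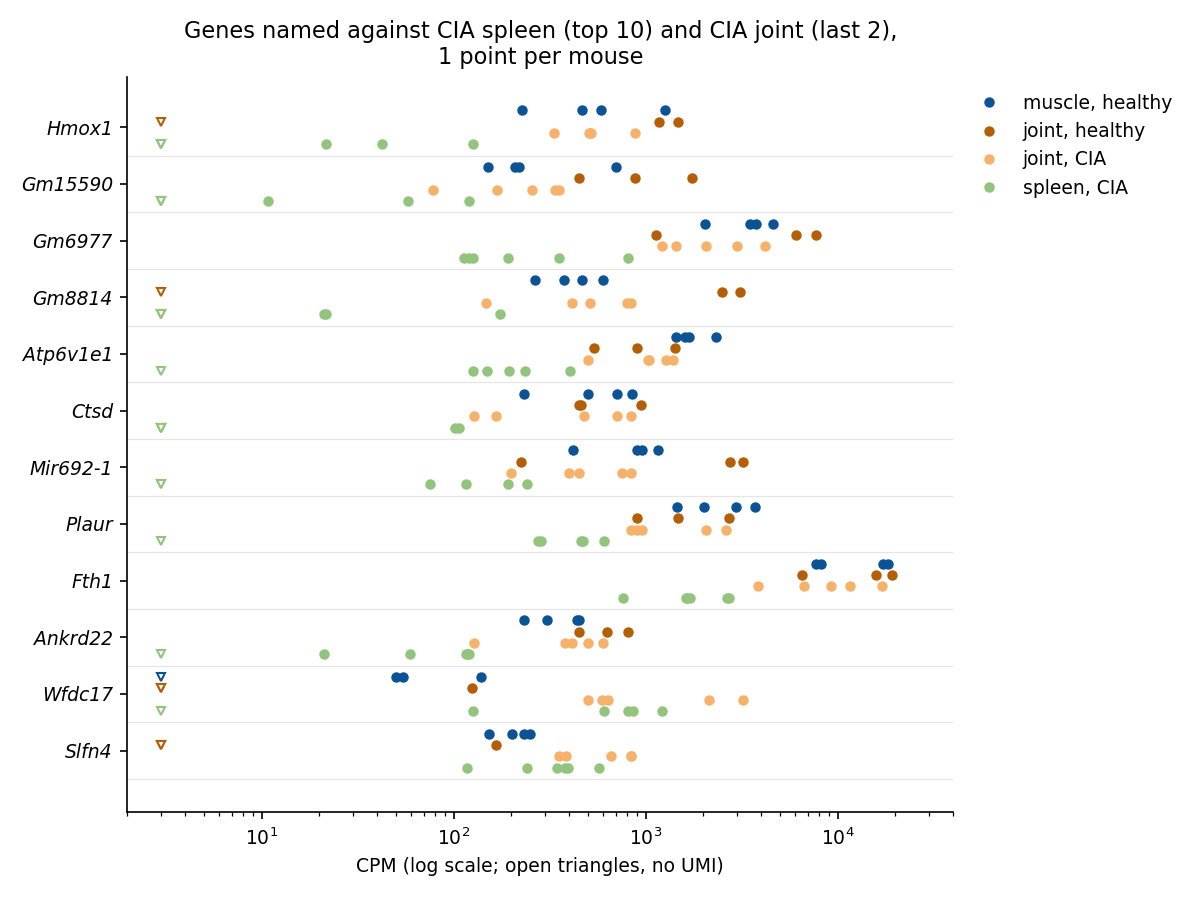
CPM (x axis, log scale) of the 10 genes named as higher in healthy muscle than in CIA spleen granulocytes and of the 2 named as lower than in CIA joint granulocytes (the bottom pair), with 1 point per mouse and group, and an open triangle where a group has mice with no UMI. Joint samples of healthy and CIA mice lie near muscle for *Fth1* and *Plaur*, and spleen lies below them, at 761 to 2715 CPM for *Fth1*.

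Several named genes are uncertain. *Gm6977* (3.32 ± 0.53), *Gm8814* (3.26 ± 0.83) and *Gm15590* (3.36 ± 0.91) are annotated as processed pseudogenes, and *Mir692-1* (2.52 ± 0.62) as a miRNA gene, whose short product the poly(A) capture used here does not measure as such. Their reads may come from near-identical copies elsewhere.

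The joint values stand beside these. *Hmox1* stood at 335 to 878 CPM in the CIA joints and *Fth1* at 3838 to 17098, and both ranges overlapped those of muscle. In 12 granulocytes of healthy spleen, pooled, *Fth1* was at 1268 CPM, *Plaur* at 317 and *Hmox1* and *Ctsd* at 0 UMIs of 9463. A count of 0 in this pool allows up to 317 CPM, above the lowest muscle values of *Hmox1* (226) and *Ctsd* (233). T cells also differed in *Fth1*, with 6073 CPM pooled in healthy muscle and 1449 in CIA spleen. For *Hmox1* they held 96.7 and 18.4 CPM, for *Plaur* 201 and 129, and for *Atp6v1e1* 209 and 170. The part of organ and handling in these differences was not tested.

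Among the 11 genes lower in muscle than in CIA spleen, none was free of overlap. *Ifi27l2a* differed by -4.54 ± 0.73 (SE, edgeR adjusted p = 9.31e-05), with 235 to 1166 CPM in the spleens, and *Wfdc17* by -3.38 ± 0.75 (edgeR adjusted p = 0.00296). In T cells the pooled *Ifi27l2a* level was 58 CPM in healthy muscle and 1008 in CIA spleen. Here too, *Ifi27l2a* and *Wfdc17* could pass the filter on low counts through the CIA samples alone. *S100a8* was lower by -0.74 ± 0.20 (edgeR adjusted p = 0.0148) and *S100a9* by -0.59 ± 0.18 (edgeR adjusted p = 0.0330), and *Serpinb1a*, an inhibitor of neutrophil proteases, by -1.53 ± 0.45. *Hp*, *Ifitm3*, *Ndufb7*, *Rpph1*, *Ighm* and *Igkc* were the rest.

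None of the genes tested from the mature neutrophil, specific granule or cell cycle lists passed against CIA spleen, and only 1 of the 16 cell cycle genes was tested. The mature neutrophil list summed to 942 to 3764 CPM in CIA spleen and 3488 to 7581 in healthy muscle, and its 4 tested genes had a median log2 difference of 0.84. *Retnlg* stood at 2036, 1845, 289, 362, 254 and 118 CPM in the spleens of S1, S2, S3, S5, S6 and S8 and differed by 1.16 ± 0.53 (SE, edgeR adjusted p = 0.131). *G0s2* differed by 1.46 ± 0.55 (edgeR adjusted p = 0.0746). The cell cycle list summed to 1155 to 2663 CPM in spleen and 427 to 1395 in muscle, where only H3 reached the range of the spleen. Thinned, 37.3% of the spleen granulocytes (Wilson 95% interval 31.4% to 43.7%) and 11.96% of the muscle granulocytes had a UMI of it, which is a description over cells and not a test over mice. Of the 233 spleen granulocytes 147 came from S2, while S5, S6 and S8 gave 6, 5 and 6, so this share mostly describes S2.

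The last comparison was between healthy and CIA muscle. Here 26 genes could be tested, because the CIA mice gave 1 to 4 cells each, and edgeR called 0 (0%), with 3 at an unadjusted p under 0.05 (*Gm6977*, *Hba-a1* and *Fth1*; 11.5%), and DESeq2 called 0. *Camp* stood at 22936, 12820, 13966, 27831, 38290 and 30595 CPM in S1, S2, S3, S5, S6 and S8, around the healthy values, with a log2 difference of -0.17 ± 0.33 (SE) for CIA minus healthy. *Retnlg* stood at 0, 2630, 1581, 0, 0 and 111 CPM, with a log2 difference of -1.73 ± 0.85 (edgeR adjusted p = 0.340). *Fth1* differed by -1.25 ± 0.51 (edgeR adjusted p = 0.257).

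As pools without a test, the 16 CIA cells held 4545 CPM of *Fth1*, beside 15310 in the 184 healthy cells, and 142 CPM of *Hmox1*, beside 715. *Plaur* was at 568 beside 2233, *Wfdc17* at 2225 beside 88 and *Ifi27l2a* at 379 beside 41. *Camp* was at 25658 beside 28550. Of the 21124 UMIs of the CIA cells, 9021 came from S8. By mouse (S1, S2, S3, S5, S6 and S8), *Fth1* stood at 917, 11506, 2899, 6718, 7658 and 1995 CPM. *Wfdc17* stood at 0, 13807, 527, 0, 638 and 111 CPM in the same order.

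Cells of the earliest granulocyte stage were also looked for outside the label. In the muscle cells with neither the granulocyte nor the neutrophil label, the primary granule genes summed to 445 CPM in H3, 1110 in H4, 669 in H6 and 419 in H7, and to 0, 11.8, 280, 54.1, 20.6 and 22.3 CPM in S1, S2, S3, S5, S6 and S8. All healthy mice lay above all CIA mice, with means of 661 ± 320 (SD, n = 4) and 64.9 ± 107 (SD, n = 6) and an exact permutation p of 0.00476, adjusted over 4 lists 0.0190. B cell precursor, erythroid precursor and progenitor lists showed no such separation (exact permutation p = 0.338, 0.519 and 0.576). The value 0.00476 is the smallest p that 4 against 6 mice can give, and the lists were chosen with earlier results of these data known. The primary granule UMIs lay in few cells, 2 of 65 in H3, 22 of 121 in H4, 18 of 296 in H6 and 24 of 356 in H7. In S1, S2, S3, S5, S6 and S8 they lay in 0 of 44, 4 of 683, 7 of 170, 6 of 346, 24 of 1900 and 1 of 257 cells. The mix of cells differed as well, with 97 healthy and 1507 CIA muscle cells labelled myocytes. The part of this mix in the primary granule result was not tested.

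**Figure D5:**
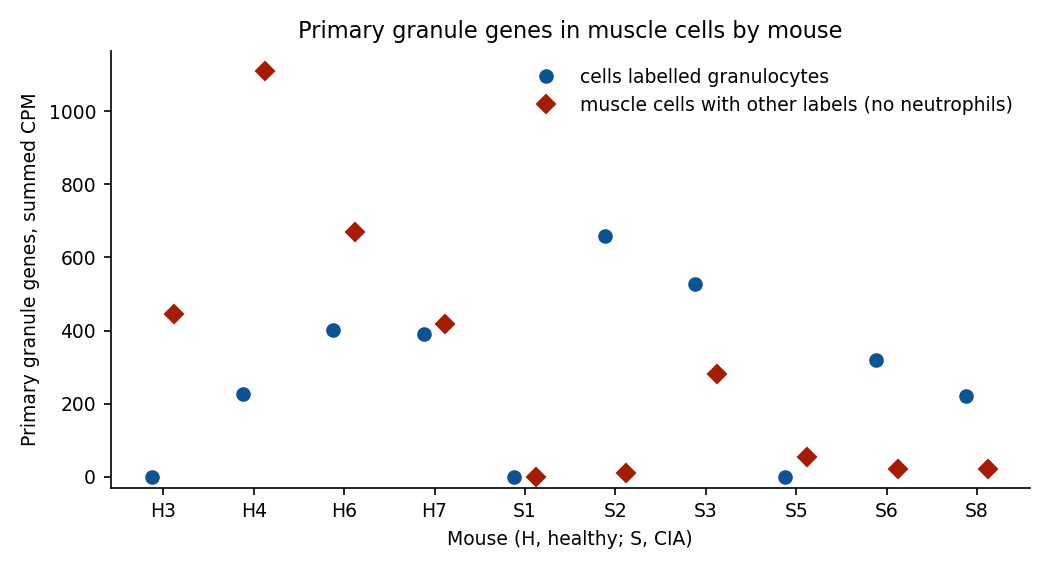
Summed CPM of 6 primary granule genes (y axis) by mouse (x axis; H, healthy; S, CIA), in cells labelled granulocytes (circles) and in muscle cells with other labels, neutrophils left out (diamonds). The other cells of healthy mice lie between 419 and 1110 CPM and those of CIA mice between 0 and 280.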

How the data were processed

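Per gene and cell, the deposited values are whole UMI counts that had not been normalized, covering 34586 genes and 13240 cells of 48 libraries. The authors had used STAR with GRCm38 to make them. A further deposited table gives cell type, organ and disease for 12096 cells. Its labels were used as given, and no doublets were removed here. Per the labels, GRCh38 and mm9 are also listed among the builds, without a role. Levels are counts summed per mouse and given per 1000000 UMIs (CPM).

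Sums per mouse, over the mice with at least 5 granulocytes (1 for healthy against CIA muscle), were compared with the edgeR 4.0.16 quasi-likelihood test in R 4.3.3 with TMM factors, the default filter on low counts and Benjamini-Hochberg adjustment over all genes tested at 0.05; the standard error is the size of the log2 difference over the square root of F. DESeq2 1.42.0 was the alternative tool. Exact permutation tests over mice, two-sided, served for list levels, and the share of granulocytes, planned with the same test, is given without one. The tests were run in Python 3.11.15 (scipy 1.17.1, pandas 2.3.3, numpy 2.4.6), and figures were drawn with matplotlib 3.10.9. The edgeR fits were also run on counts simulated from means and dispersions estimated from these data, which cannot show how well the model suits them. Of genes given a log2 change of 2, 70.4% were recovered against healthy joint, 90.5% against CIA joint and 91.1% against CIA spleen. For healthy against CIA muscle 75.8% were, so even large changes can be missed. Positions are those of GENCODE vM21.

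The text names the genes of the lists, the 20 genes of highest mean CPM in healthy muscle granulocytes, and at most 10 genes per comparison and direction among those called without overlap between mice. Called genes with overlap, the 5 genes of the fit of 2 groups and genes with an unadjusted p under 0.05 were named after their values were seen. Members and lists were chosen with earlier results of these data known.

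Muscle and joint samples of H3, H4 and H7 come from the same animals. Over 279 genes their deviations correlated by -0.02, 0.05 and 0.04 (Pearson's r). The same numbers in healthy and CIA mice are different animals. Alternatives were RLE factors, DESeq2, no filter, haemoglobin genes left out, the experiment or the mouse as a term, other minimums of cells, only the 2 groups compared, lysed samples left out and each mouse left out in turn. Leaving out the muscle sample of H3 was added after seeing the data.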

Additional observations from a re-analysis of the deposited data

Results flagged for a closer look

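The muscle sample of H3 stood apart for *Gm15590*, an annotated processed pseudogene, at 697.5 CPM, with the next of the 4 healthy mice at 219 CPM. In that sample 1 UMI is worth 233 CPM. Of 42 values looked at for such a gap, 1 was past the critical value, and chance gives about 1 in 20 groups.

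Primary granule genes were counted in cells outside the comparisons. In the 38 healthy muscle cells labelled dendritic cells they reached 6692 CPM (216 UMIs, 17 cells with a UMI and 12 with at least 5), which is 46.7% of the UMIs of this list in healthy muscle, beside 2280 CPM in the 12 such cells of CIA muscle. In the 350 healthy muscle cells labelled T cells they reached 596 CPM (154 UMIs, 29 cells with a UMI and 7 with at least 5), beside 37.0 CPM in 933 T cells of CIA muscle. The 184 granulocytes held 59 of these UMIs (346 CPM). Both levels were pooled over mice and not tested.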

How the results depend on the processing

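The share of granulocytes, known to differ when the cells were chosen, is described here without a test, and its difference kept its sign in every alternative. This gives no support of its own. The difference was -19.4 points in the experiment CIA alone, -15.0 in the lysed samples, -16.3 in the unlysed and -14.4 with all cells of the table as the denominator, and ranged from -18.9 to -12.0 points with each mouse left out.

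Against healthy joint the count of calls rose from 0 to 5 with only the 2 groups, and was 0 in the other alternatives run, with 0 to 0 calls when each mouse was left out and 0 with the replicate block of the mouse. RLE factors moved the median of all genes there to -0.10 (TMM -0.02). At least 10 cells per mouse could not be fitted for this comparison.

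Against CIA joint 2 genes were called without the filter (1 of the 6 among them, *Wfdc17*), 3 with only the 2 groups (all among the 6), 5 with the experiment as a term and 4 with at least 10 cells (*Slfn4* lost in both), and 1 without the lysed muscle samples, which was none of the 6 (*Fabp4*), and where *H2-Aa* and *Igkc* reversed to -0.57 and -0.73. Leaving out each mouse gave 1 to 8 calls, with 1 without H7 and 1 without S1.

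Against CIA spleen, beside the 36 calls, 11 genes were called without the filter (4 of the 36 among them), 20 with the experiment as a term (18), 23 with at least 3 cells (22), 37 with at least 10 cells (21), 23 with only the 2 groups (20) and 48 with DESeq2 (35). Leaving out each mouse gave 16 to 46, with 16 without S2, 17 without H6 and 22 without S1. *Fth1*, *Gm6977*, *Hcar2* and *Hmox1* were called in every alternative that tested them. *Plaur*, *Atp6v1e1* and *Ctsd* lost the call without the filter alone.

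For healthy against CIA muscle the 0 calls became 41 without the filter (unadjusted p under 0.05 in 1132 genes) and 2 with at least 2 cells, and stayed 0 to 0 with each mouse left out. The number of the mouse as a replicate block gave 0 calls; the numbers name different animals, and deviations of the same number correlated by -0.001 (3) and 0.36 (6). Without the muscle sample of H3, an alternative chosen after seeing the data, the calls against healthy joint, CIA joint and CIA spleen were 0, 7 and 36. The cause of these changes was not tested. Muscle samples of CIA mice with 1 to 4 cells, and H3 with 5, limit what could be called.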
